A study of Mus musculus with 33 samples.

Results

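The gene set described here comprised Trpm5 and 9 other genes of taste cells, followed through mouse tongues of 2 genotypes at 3 stages. The genes were found by their symbol in the expression tables of the tongues, which list 27825 genes each. Of the 10 genes, 9 had a row in all 3 tables, and Sox2 was not analysed here. Trpm5 was selected on its P0 values, where it had stood out between the genotypes in earlier work on these data, and the other genes were chosen by their known place in taste cells. For that reason its P0 genotype difference is given below as a description without a test.

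RNA-seq had been carried out on whole tongues at an embryonic stage (E13.5), at birth (P0) and at postnatal day 20 (P20), with 3 libraries per genotype and stage. The biallelic mice derive from a Zac1o knockout and express Zac1 from both alleles, whereas the wild type mice keep the normal imprint. Zac1 is an older name of Plagl1, an imprinted zinc finger transcription factor gene that is normally expressed from the paternal allele. The protocols call the libraries biological replicates, and neither sex nor litter nor the number of animals per library is given, so p-values measure the spread between these libraries. Levels are given in RPM, the reads of a gene scaled to the depth of its library, without correction for gene length.

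Taste buds hold type I cells, which are glia-like, type II cells, which detect sweet, bitter and umami compounds, and type III cells, which respond to sour. In a type II cell a receptor of the Tas1r or Tas2r family activates a G protein, phospholipase C β2 (Plcb2) releases calcium through the IP3 receptor Itpr3, and calcium opens the cation channel Trpm5, which depolarises the cell. Taste placodes appear on the mouse tongue before birth, while most buds mature and begin to express this cascade around and after birth.

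The 18 libraries held 36832717 to 92249098 reads, of which 32.13% to 37.64% fell in listed genes, so that 3 reads, the limit that a count of 0 allows, correspond to 0.0325 to 0.0814 RPM. Such limits and all Poisson intervals cover counting error only. Plagl1 stood at 203.2 ± 62.9 RPM in biallelic and 87.6 ± 19.7 RPM in wild type tongues at E13.5, at 473.0 ± 37.8 RPM in biallelic and 231.2 ± 10.97 RPM in wild type tongues at P0, and at 64.9 ± 13.2 RPM in biallelic and 26.2 ± 3.83 RPM in wild type tongues at P20 (SD, n = 3 each). The labelled tissue was checked against markers of its main cells. At P20 all 12 measured genes of stratified tongue epithelium had reads, Krt13 leading at 3263 RPM in biallelic and 3400 RPM in wild type tongues, and all 12 genes of skeletal muscle had reads too. At each stage 1 or 2 libraries stood apart on the first principal component, which held 32.9% of the variance at E13.5, 47.1% at P0 and 49.7% at P20. They were biallelic replicate 3 and wild type replicate 1 at E13.5, biallelic replicate 1 and wild type replicate 2 at P0, and biallelic replicate 3 at P20. P20 wild type replicate 2 carried salivary gland transcripts, with a sum of 137.6 RPM over 8 salivary genes against at most 0.639 RPM in the other P20 libraries.

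Trpm5 lies on chromosome 7 of GRCm38 (chr7:143069153-143094642, minus strand), between Cd81 and Kcnq1 in a distal region rich in imprinted genes. At E13.5 it had 8.27, 18.1 and 11.5 RPM in the biallelic tongues (358, 666 and 553 reads), against 4.45, 12 and 10.15 RPM in wild type tongues (172, 629 and 480 reads). At P0 it had 6.02, 5.67 and 5.93 RPM in the biallelic tongues (291, 379 and 446 reads), against 3.34, 3.39 and 3.38 RPM in wild type tongues (206, 240 and 312 reads). At P20 it had 0.350, 0.265 and 0.680 RPM in the biallelic tongues (20, 15 and 36 reads), against 0.196, 0.1202 and 0.242 RPM in wild type tongues (9, 7 and 11 reads). The channel gene was thus at its highest in the embryonic tongue and close to the read floor at P20. All 6 P20 values lay below all 6 P0 values, whereas the P0 and E13.5 values overlapped through 1 E13.5 library, wild type replicate 1. Within each genotype the P0 libraries lay below all E13.5 libraries of that genotype.

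Trpm5 fell by 1.15 on the log2 scale at P0 relative to E13.5 (SE 0.28, limma adjusted p = 0.00114), fell by 4.06 at P20 relative to P0 (SE 0.28, limma adjusted p = 5.35e-09) and was lower at P20 than at E13.5 by a difference of -5.21 (SE 0.28, limma adjusted p = 1.11e-11). These 3 differences share libraries and are not independent of one another. With 1 RPM added before the logarithm the differences were -2.08 at P20 relative to P0 and -3.08 at P20 relative to E13.5, and both still passed. Differences within a genotype use the P0 values on which Trpm5 was selected, so their p-values are not free of that choice. The difference of P20 minus P0 was -3.88 in the biallelic and -4.24 in the wild type tongues (SE 0.395 each, limma adjusted p = 1.38e-06 and 7.15e-07). The smaller difference of P0 minus E13.5 was -1.03 in the biallelic tongues (limma adjusted p = 0.0275) and -1.27 in the wild type tongues (limma adjusted p = 0.00822). In the biallelic tongues that call rested on single libraries: without E13.5 biallelic replicate 2, the library highest in Trpm5, the difference was -0.73 (limma adjusted p = 0.139), and it also missed the threshold without any one P0 biallelic library, where it was -1.004 to -1.047 (limma adjusted p = 0.0525 to 0.0635). RNA of the E13.5 tongues was extracted with another kit (AllPrep) than that of the P0 and P20 tongues (TRIsure), so kit and stage cannot be told apart in any comparison with E13.5. In whole tongues, fewer cells of a type and less RNA per cell cannot be told apart either.

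**Figure D1:**
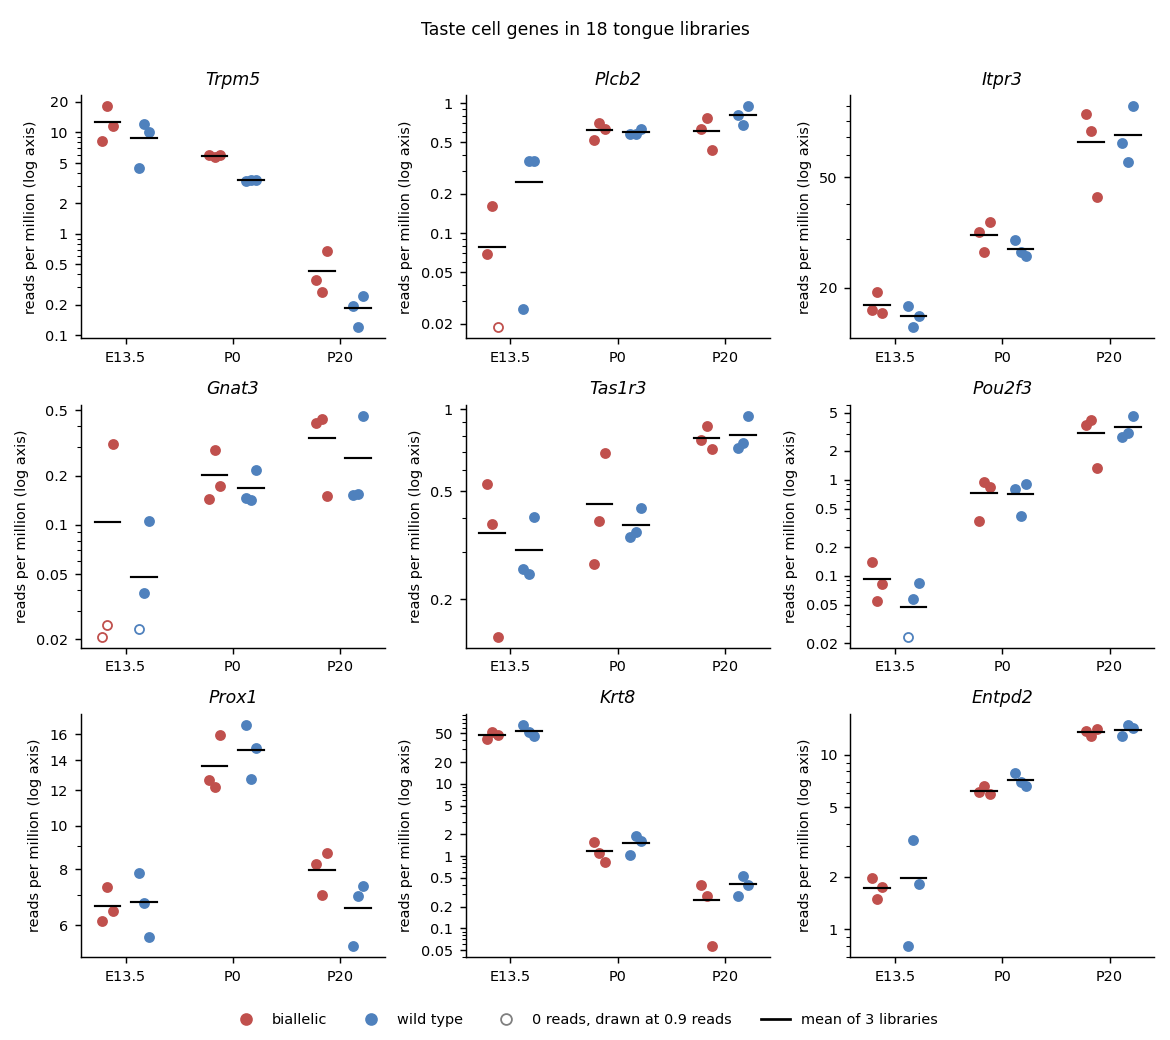
Level of each of the 9 genes in every library, in RPM on a log axis, at E13.5, P0 and P20 from left to right, with biallelic libraries left of wild type libraries and a bar at each mean of 3. Trpm5 and Krt8 step down through the stages, from 4.45 to 18.1 RPM at E13.5 to 0.1202 to 0.680 RPM at P20 for Trpm5, whereas Itpr3, Pou2f3 and Entpd2 step up.

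Plcb2, Itpr3, Gnat3 and Tas1r3, which act in the same cascade, were higher at P20 than at E13.5, opposite to Trpm5. Over the same stages the sum of 12 genes of stratified tongue epithelium also rose. That sum was 451.2 to 816.6 RPM at E13.5, 2345 to 3286 RPM at P0 and 5630 to 10260 RPM at P20. The part of this epithelium in the rise of the cascade genes, or of Pou2f3, was not tested. Of the 9 genes measured, 6 were higher and 2 lower at P20 than at E13.5, and Prox1 did not pass the test. The background in that comparison was 45.9% of 16390 tested genes called higher and 36% called lower, so stage calls in either direction were common. At P0 relative to E13.5, 6 were higher, 2 lower and Tas1r3 did not pass, against a background of 42.8% higher and 38% lower. At P20 relative to P0, 4 were higher (Itpr3, Pou2f3, Entpd2 and Tas1r3), 3 lower (Trpm5, Krt8 and Prox1), and Gnat3 and Plcb2 did not pass, against a background of 37.7% higher and 20.8% lower. That split of 6185 genes higher and 3415 lower became 4416 higher and 4877 lower when each library was centred on its median, and the median of all genes in this comparison moved from 0.18 to -0.02 on the log2 scale. None of these 27 stage differences changed its call with the 5 libraries that stood apart left out together, a choice made after seeing the data.

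Plcb2, the phospholipase of the cascade (chr2:118707517-118728438), was close to the floor at E13.5, with 3, 6 and 0 reads in the biallelic tongues and 1, 19 and 17 reads in the wild type tongues. It had 0.517, 0.703 and 0.638 RPM in the biallelic tongues at P0, against 0.584, 0.579 and 0.629 RPM in wild type. At P20 it had 0.629, 0.777 and 0.434 RPM in the biallelic tongues, against 0.807, 0.687 and 0.948 RPM in the wild type tongues. Every P0 and P20 library thus lay above every E13.5 library, while P0 and P20 overlapped. Plcb2 rose by 2.68 at P0 relative to E13.5 on the log2 scale (SE 0.58, limma adjusted p = 0.000441), whereas its difference of 0.20 at P20 relative to P0 did not pass (limma adjusted p = 0.791) and turned to -0.01 when libraries were centred on their medians.

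Gnat3 encodes gustducin, the taste G protein α subunit (chr5:17962621-18019834). It was close to the floor at E13.5, with 0, 0 and 15 reads in the biallelic tongues at E13.5, against 0, 2 and 5 reads in the wild type tongues. At P0 it had 7, 19 and 13 reads in the biallelic tongues and 9, 10 and 20 reads in the wild type tongues, and at P20 it had 24, 25 and 8 reads in the biallelic tongues and 7, 9 and 21 reads in the wild type tongues. A single E13.5 library, biallelic replicate 3 at 0.312 RPM, reached the range of the later stages. The P0 level was higher than that at E13.5 by 1.84 on the log2 scale (SE 0.62, limma adjusted p = 0.0112), but this call was lost when 1 RPM was added before the logarithm (limma adjusted p = 0.115, difference 0.14). Between P20 and P0 Gnat3 differed by 0.54 (limma adjusted p = 0.466).

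Tas1r3, the subunit shared by the sweet and umami receptors (chr4:155859268-155863362), had 23, 14 and 7 reads in the biallelic tongues and 10, 13 and 19 reads in the wild type tongues at E13.5. Its level was 0.269, 0.389 and 0.691 RPM in the biallelic tongues at P0, against 0.341, 0.353 and 0.434 RPM in the wild type tongues. At P20 it was 0.769, 0.866 and 0.717 RPM in the biallelic tongues, against 0.720, 0.755 and 0.948 RPM in the wild type tongues. All P20 libraries lay above all earlier ones, and the rise at P20 relative to P0 was 1.004 on the log2 scale (SE 0.315, limma adjusted p = 0.0117). Between P0 and E13.5 the difference was 0.39 (limma adjusted p = 0.265).

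Pou2f3, the transcription factor that specifies type II and related chemosensory cells (chr9:43122628-43210369), was higher at each later stage. It had 0.139, 0.0543 and 0.0833 RPM in the biallelic tongues at E13.5 (6, 2 and 4 reads), against 0, 0.0572 and 0.0846 RPM in wild type tongues (0, 3 and 4 reads). At P0 it had 0.372, 0.958 and 0.851 RPM in the biallelic tongues against 0.795, 0.424 and 0.911 RPM in wild type. At P20 it had 3.72, 4.19 and 1.34 RPM in the biallelic tongues, against 2.81, 3.11 and 4.65 RPM in the wild type tongues. The 3 stages did not overlap, and Pou2f3 rose by 5.58 on the log2 scale at P20 relative to E13.5 (SE 0.40, limma adjusted p = 5.57e-10), the stage at which Trpm5 was lowest. With 1 RPM added before the logarithm the difference was 1.96, below the 2.41 of Entpd2 on that scale, so the size depends on how 0 to 6 reads at E13.5 are treated. Pou2f3 is also known from the epidermis and from tuft cells, and its reads cannot be assigned to one cell type here.

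Itpr3 (chr17:27057304-27122223), which is expressed in many epithelia besides taste cells, rose in both steps, from 14.4 to 19.3 RPM over the 6 libraries at E13.5, through 25.9 to 34.5 RPM at P0, to 42.6 to 90.1 RPM at P20. Its differences were 0.82 at P0 relative to E13.5 and 1.203 at P20 relative to P0 (SE 0.145 each, limma adjusted p = 5.89e-05 and 2.73e-06). Entpd2, an ectonucleotidase that marks type I cells, rose by 1.97 at P0 relative to E13.5 and by 1.03 at P20 relative to P0 (SE 0.224 each, limma adjusted p = 3.27e-07 and 0.000822), with medians of 1.78, 6.60 and 13.8 RPM at the 3 stages. Its row spans chr2:25395874-25409494, which takes in the next gene, Npdc1, on the same strand, so these reads cannot be assigned to Entpd2 alone.

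Prox1, a homeobox gene of taste bud cells as well as of lymphatic endothelium and muscle (chr1:190118038-190170680), was highest at birth. Its median over the 6 libraries was 6.58 RPM at E13.5, 13.8 RPM at P0 and 7.18 RPM at P20. It rose by 1.08 at P0 relative to E13.5 and fell by 0.97 at P20 relative to P0 (SE 0.12 each, limma adjusted p = 1.71e-07 and 2.81e-06). The summed level of 7 lymphatic endothelial genes was also highest at birth, at 26.1 to 34.0 RPM at E13.5, 77.9 to 95.5 RPM at P0 and 51.4 to 68.4 RPM at P20. At P20 that sum stayed above its E13.5 range, whereas Prox1 overlapped its own (difference 0.11, limma adjusted p = 0.377). The part of these lymphatic genes in the Prox1 result was not tested.

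Krt8, a keratin of simple epithelia and of taste bud cells (chr15:101996711-102004342), was the other gene that fell at both steps. It had 41.9, 51.6 and 47.2 RPM in the biallelic tongues at E13.5, against 64.8, 51.8 and 45.7 RPM in the wild type tongues. At P0 it had 1.55, 1.09 and 0.824 RPM in the biallelic tongues, against 1.04, 1.92 and 1.59 RPM in wild type. At P20 it had 0.402, 0.283 and 0.0566 RPM in the biallelic tongues (23, 16 and 3 reads). In the wild type tongues of that stage it had 0.283, 0.532 and 0.397 RPM (13, 31 and 18 reads). The stages did not overlap, and most of the loss lay before birth. Krt8 differed by -5.28 at P0 relative to E13.5 and by a further -2.25 at P20 relative to P0 (SE 0.36 each, limma adjusted p = 3.77e-10 and 5.19e-05), whereas the larger step of Trpm5 came after birth. The annotation also lists the copy Krt8-ps, which was not analysed here; the sources do not give how reads shared with it were counted.

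**Figure D2:**
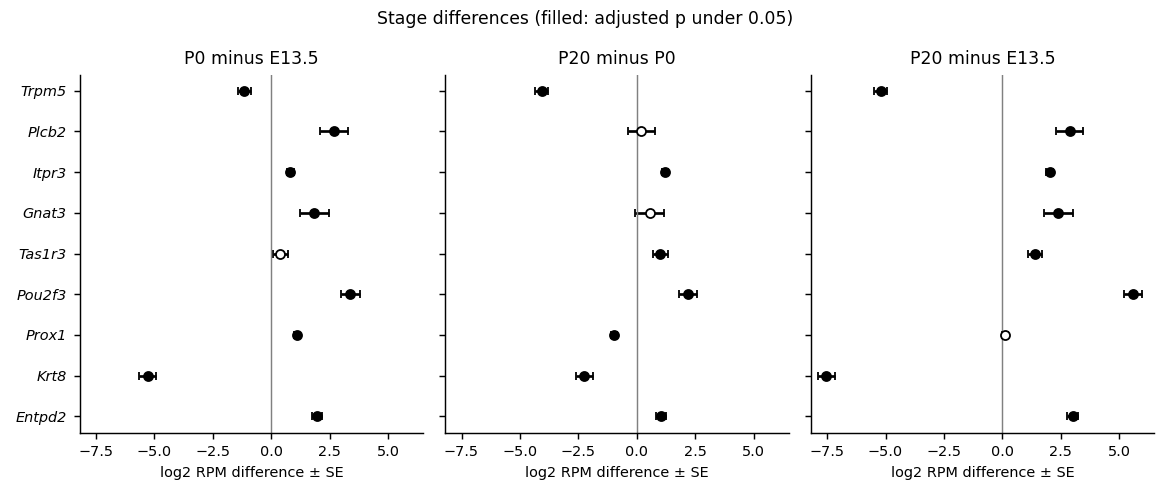
Stage differences of the 9 genes on the log2 RPM scale with their standard errors, averaged over both genotypes, as P0 minus E13.5, P20 minus P0 and P20 minus E13.5. Filled points passed the threshold. Trpm5 (-5.21) and Krt8 (-7.53) lie left of 0 in the comparison of P20 with E13.5, and Pou2f3 (5.58) lies farthest to the right.

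Set per kilobase of annotated exon, the order of the genes changed around Trpm5. Comparing genes on this scale assumes that reads were counted over these exons, which the sources do not give. At E13.5 Krt8 led with 25.8 ± 4.06 RPM per kilobase (SD, n = 6), followed by Itpr3 at 1.84 ± 0.18 and Trpm5 at 1.68 ± 0.71, whose spreads overlapped, and Prox1 at 0.796 ± 0.095. Plcb2 stood at 0.0248 ± 0.0247 RPM per kilobase, so the embryonic tongue held far more Trpm5 reads per length than reads of the phospholipase that acts upstream of it. At P0 Trpm5 (0.723 ± 0.215) and Krt8 (0.683 ± 0.212) overlapped, below Itpr3 and Prox1 and above Pou2f3, Gnat3, Tas1r3 and Plcb2, which lay between 0.0922 and 0.233 RPM per kilobase. At P20 Itpr3 led with 7.66 ± 1.96, Pou2f3 (1.07 ± 0.38) and Prox1 (0.866 ± 0.137) overlapped, and Trpm5 was last at 0.0483 ± 0.0308 RPM per kilobase, under Plcb2 at 0.108 ± 0.027. Entpd2 was left out of this order because its row holds a second gene.

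The promoters of genes that moved in opposite directions are shown as the 250 bases before each RefSeq start site (build GRCm38.p6, read 5′ to 3′ on the gene's strand), for the falling genes Trpm5 and Krt8 and the rising genes Itpr3, Plcb2 and Gnat3. Capitals mark a match to the POU octamer, printed as ATTTGCAT where it lies on the opposite strand.
Trpm5: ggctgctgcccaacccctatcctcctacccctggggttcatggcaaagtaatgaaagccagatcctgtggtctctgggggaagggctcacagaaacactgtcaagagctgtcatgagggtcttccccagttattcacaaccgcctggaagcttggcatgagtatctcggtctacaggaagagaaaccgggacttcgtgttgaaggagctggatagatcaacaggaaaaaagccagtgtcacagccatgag
Krt8: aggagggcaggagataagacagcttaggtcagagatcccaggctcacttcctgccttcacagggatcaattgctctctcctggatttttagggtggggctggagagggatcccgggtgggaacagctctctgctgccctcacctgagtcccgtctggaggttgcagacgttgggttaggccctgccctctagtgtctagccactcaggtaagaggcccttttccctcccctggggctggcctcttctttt
Itpr3: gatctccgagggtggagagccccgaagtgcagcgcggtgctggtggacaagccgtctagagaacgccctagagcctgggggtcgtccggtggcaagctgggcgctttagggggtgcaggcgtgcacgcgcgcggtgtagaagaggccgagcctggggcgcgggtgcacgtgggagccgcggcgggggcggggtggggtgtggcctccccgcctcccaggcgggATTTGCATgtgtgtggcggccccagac
Plcb2: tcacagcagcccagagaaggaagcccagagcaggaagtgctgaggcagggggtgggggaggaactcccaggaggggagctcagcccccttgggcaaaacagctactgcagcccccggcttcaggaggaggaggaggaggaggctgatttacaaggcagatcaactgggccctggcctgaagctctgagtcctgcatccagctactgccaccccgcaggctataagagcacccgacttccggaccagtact
Gnat3: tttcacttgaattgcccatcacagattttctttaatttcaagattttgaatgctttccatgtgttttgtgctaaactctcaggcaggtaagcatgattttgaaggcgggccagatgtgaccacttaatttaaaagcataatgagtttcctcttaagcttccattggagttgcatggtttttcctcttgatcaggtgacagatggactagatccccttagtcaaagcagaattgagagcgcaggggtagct
The windows are chr7:143094643-143094892 for Trpm5, chr15:102004343-102004592 for Krt8 and chr2:118728439-118728688 for Plcb2, all on the minus strand, and chr17:27057054-27057303 for Itpr3 and chr5:17962320-17962569 for Gnat3 on the plus strand. Promoter windows were found for 8 of the 9 genes, and Pou2f3 was the other. Windows of 250 bases before and 50 after the start were searched on both strands for the octamer ATGCAAAT, bound by POU factors, and for the palindrome GGGGCCCC, the site known for the Plagl1 protein. The octamer was found in the window of Itpr3 alone, on the opposite strand with its first base 27 bases before the start, and 1.74% of all 32851 windows hold it. The palindrome was found in the window of Entpd2 alone, from base 30 after the start, and 1.08% of all windows hold it. The Trpm5 window held neither, had a GC content of 53.0% against a median of 52.7% over all windows, and had 5 CG dinucleotides against a median of 7, whereas the Itpr3 window had 72.3% GC and 30 CG dinucleotides. These matches are descriptions of letters, not binding sites.

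Other genes of taste cells, from lists chosen with earlier results of these data known, were read beside the set. Of 36 measured taste receptor genes (Tas1r1 and the Tas2r family), 2 passed the filter of 10 reads in 3 libraries, and at E13.5 no read was found for 34 of the 36 in the biallelic and 33 in the wild type tongues. Tas1r1, the umami receptor subunit, had a mean of 0.0906 RPM at E13.5, 0.885 RPM at P0 and 0.178 RPM at P20, and it rose by 3.89 at P0 (SE 0.57, limma adjusted p = 7.73e-06) and fell by 2.33 at P20 relative to P0 (limma adjusted p = 0.00227). The bitter receptor gene Tas2r143 had no read in the 6 E13.5 libraries and means of 0.126 RPM at P0 and 0.193 RPM at P20. Of 9 tested genes of type II signalling and transmitter release, 3 were higher and 2 lower at P20 than at E13.5, against 45.9% higher and 36% lower over all genes, with a median of 0.16 against 0.24. Gnb3, a G protein β subunit of type II cells, rose by 2.57 (limma adjusted p = 4.57e-05) and Gna14, a G protein α subunit of the tongue, rose by 3.92 (limma adjusted p = 4.62e-08), while Trpm4, the closest relative of Trpm5, rose by 0.67 (limma adjusted p = 0.00262), so both channel genes passed in opposite directions. The 2 lower genes were P2rx2, an ATP receptor of taste nerves, at -2.64 (limma adjusted p = 0.00162) and the sodium channel gene Scn2a1 at -0.47 (limma adjusted p = 0.024).

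Among 11 tested genes known from tuft and solitary chemosensory cells, which share Trpm5 and Pou2f3 with type II cells, 9 were higher and 1 lower at P20 than at E13.5, against 45.9% higher and 36% lower over all genes, with a median of 2.70 against 0.24. The leukotriene gene Alox5 rose by 4.87 and the prostaglandin synthase gene Ptgs1 by 3.30 (limma adjusted p = 7.45e-07 and 5.59e-11), and the acetylcholine gene Chat fell by 1.19 (limma adjusted p = 0.0316). Several of these genes are also expressed by leukocytes, whose 8 measured markers summed to 18.3 to 30.2 RPM at E13.5 (2 of them without a read in the biallelic and 1 in the wild type tongues), 33.2 to 43.6 RPM at P0 and 30.9 to 47.4 RPM at P20. At E13.5 Kit, which other cells also express, made up 15.7 RPM of that sum, and it fell by 1.29 at P20 relative to E13.5 (limma adjusted p = 4.80e-09). Of the 6 leukocyte genes tested 5 were higher and 1 lower at P20 than at E13.5, with a median of 2.53 beside the 2.70 of the tuft cell list. Ptprc, the pan-leukocyte marker CD45, rose by 2.71 and the mast cell protease gene Cpa3 rose by 5.08 (limma adjusted p = 1.24e-07 and 1.83e-07). The part of leukocytes in the tuft cell list was not tested. Of 11 tested type III genes 2 were higher and 5 lower at P20 than at E13.5. The shares over all genes were 45.9% higher and 36% lower, and the list had a median of -0.39 against 0.24. Chga, which encodes the granule protein chromogranin A, fell by 3.79 (limma adjusted p = 8.49e-06), while the carbonic anhydrase gene Car4 rose by 3.03 (limma adjusted p = 0.00113). Of 4 listed type I genes 3 were tested, and all 3 were lower, against 36% lower over all genes. Slc1a3, a glutamate transporter gene, was at -1.52 (limma adjusted p = 1.89e-08). Entpd2, the type I marker described above, went the other way at 3.0, from a row that also takes in Npdc1.

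Of 24 tested genes of the taste placode and of tongue progenitors, 4 were higher and 18 lower at P0 than at E13.5, against 42.8% higher and 38% lower over all genes, with a median of -0.90 against 0.13. Shh, the signal made by the placodes, fell by 6.29 (SE 0.76, limma adjusted p = 6.66e-07), Foxa2, a forkhead factor of the early epithelium, fell by 7.73 (SE 0.36, limma adjusted p = 2.83e-12), and Wnt10b, a placode Wnt ligand, fell by 5.33 (SE 0.45, limma adjusted p = 5.88e-09). Egfr, the receptor for epidermal growth factor, rose by 1.68 (SE 0.12, limma adjusted p = 1.19e-09). At P20 relative to P0, 9 of the list were higher and 7 lower, against 37.7% higher and 20.8% lower over all genes. The simple keratins moved with Krt8: Krt7, Krt18 and Krt19 all fell at P0 relative to E13.5 (differences -3.84, -4.999 and -5.36, limma adjusted p at most 5.71e-08), and Krt20 was under the filter. Of the 12 genes of the stratified epithelium list, 7 were higher and 3 lower over the same interval. The 3 lower were the adhesion gene Epcam (-4.97), the basal keratin gene Krt14 (-0.73) and the cadherin gene Cdh1 (-0.54), and the largest increases were in Krt13 (12.7), Lor (9.09) and Krt4 (8.73), genes of the differentiated surface.

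**Figure D3:**
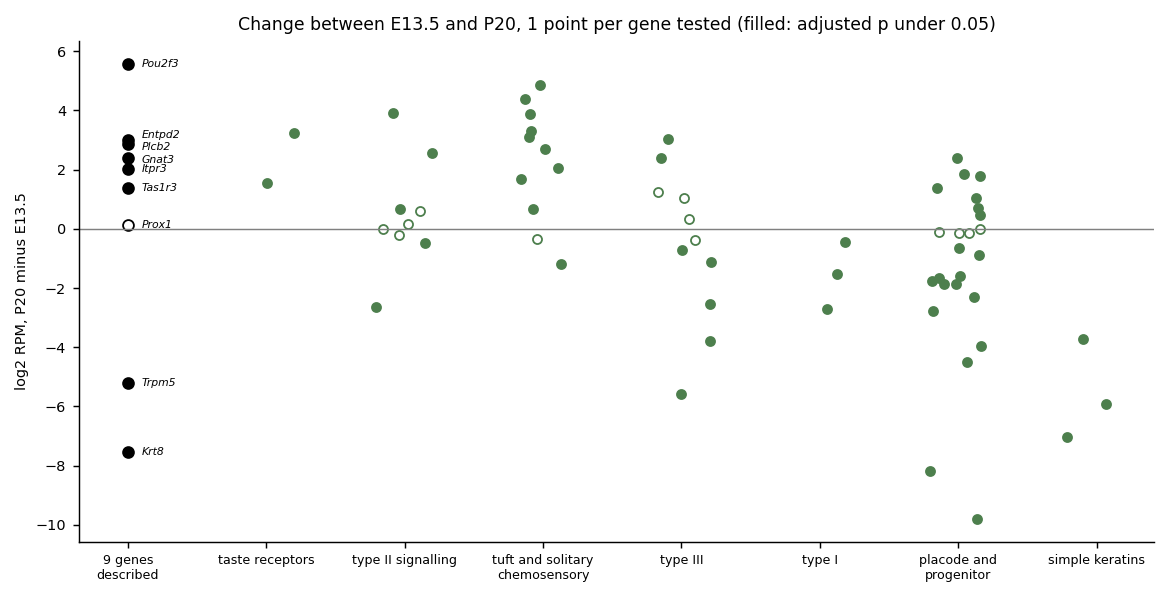
Difference between P20 and E13.5 on the log2 RPM scale for the 9 genes described and for every tested gene of 7 related lists, 1 point per gene, filled where the adjusted p passed the threshold. Trpm5 at -5.21 lies below all 9 tested genes of type II signalling, and Krt8 at -7.53 lies beside the simple keratins.

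Along chromosome 7 the genes next to Trpm5 followed no common course. Cd81, a tetraspanin gene whose end lies 1219 bases from Trpm5, stood at 41.8 ± 7.46, 56.1 ± 1.54 and 51.7 ± 8.49 RPM at E13.5, P0 and P20 (SD, n = 6 each), and its P20 difference from P0 was -0.13 (limma adjusted p = 0.318). Kcnq1, a potassium channel gene on the other side, rose by 3.99 at P0 and fell by 1.42 at P20 relative to P0 (SE 0.23 each, limma adjusted p at most 6.12e-05). Cdkn1c, an imprinted inhibitor of the cell cycle, stood at 650.7 ± 173.3, 252.7 ± 38.9 and 14.3 ± 3.60 RPM and had differences of -1.34 and then -4.17 (SE 0.158 each, limma adjusted p at most 5.07e-07), beside -1.15 and -4.06 for Trpm5. Tssc4 lies within the 3′ end of Trpm5 on the opposite strand and shares 220 exon bases with it, 3.44% of the exon bases of Trpm5. Tssc4 was also lower at both steps, by -1.71 at P0 relative to E13.5 and -0.67 at P20 relative to P0 (SE 0.109 each, limma adjusted p = 1.64e-10 and 5.98e-05). The libraries were strand-specific, but the sources do not give whether strand was used in counting, so reads of the shared bases could be assigned to either gene. Tssc4 had 127 to 174 reads per library at P20, and for each Tssc4 read Trpm5 had between 0.253 and 1.09 reads at E13.5, between 0.691 and 1.31 reads at P0, and between 0.0519 and 0.225 reads at P20, where all 6 ratios lay below all earlier ones.

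**Figure D4:**
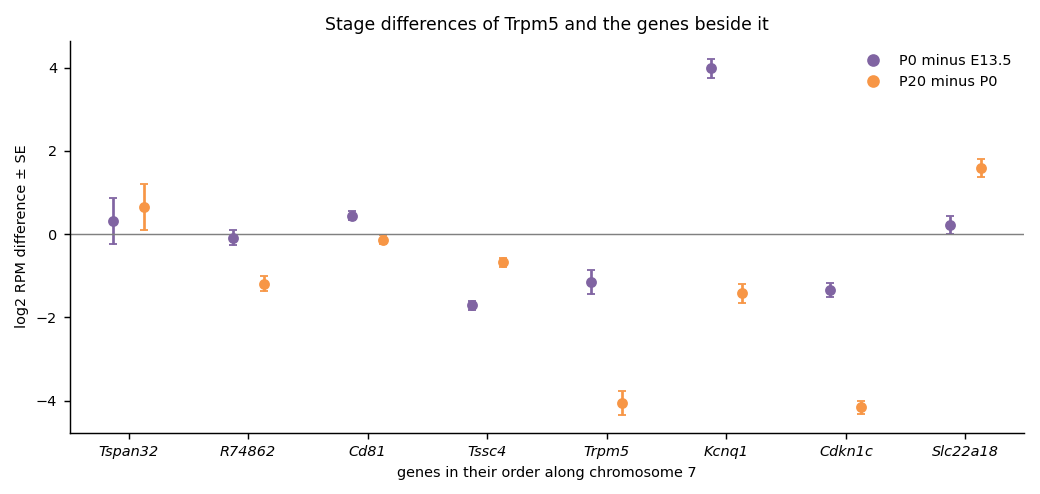
Stage differences of Trpm5 and of the 7 nearest genes in their order along chromosome 7, on the log2 RPM scale with standard errors, as P0 minus E13.5 and P20 minus P0. Trpm5 (-1.15 and -4.06), Tssc4 (-1.71 and -0.67) and Cdkn1c (-1.34 and -4.17) step down at both steps, while Kcnq1 (3.99 and -1.42), which lies between Trpm5 and Cdkn1c, first steps up.

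Over the 18 libraries the genes most like Trpm5 by Pearson correlation of log2 RPM, among 15014 genes ranked, were Arhgap28 (0.98), Btbd17 (0.978), Asxl3 (0.978), Magel2 (0.977) and Dact3 (0.974). These values are descriptions over libraries that share stages, so genes that are high in the embryo and low at P20 rank high. Among the taste cell genes Krt8 was at 0.773, Prox1 at 0.211, Plcb2 at -0.519, Tas1r3 at -0.771, Entpd2 at -0.80, Pou2f3 at -0.845 and Itpr3 at -0.915, and Gnat3 was too low to be ranked. After the mean of each stage was subtracted, the genes most like Trpm5 were Asxl3 (0.808), Begain (0.799), Cldn5 (0.799), Plagl1 (0.771) and Fbn2 (0.767), whereas Krt8 was at -0.659, rank 15007. The value for Plagl1 includes the genotype difference by which Trpm5 was selected. With the means of stage and genotype both subtracted, a step added after seeing the data, Pearson's r between Trpm5 and Plagl1 was 0.51 and Spearman's rho 0.385 (n = 18 libraries), and r was 0.508 without the 2 libraries farthest from the median of Plagl1.

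Between the genotypes, the mean Trpm5 level was higher in the biallelic tongues at E13.5, where the libraries overlapped, and at P20. The P0 difference, on which Trpm5 was selected, is not counted with these. No tested genotype difference of the 9 genes passed at E13.5 or P20, nor did any of the 8 genes other than Trpm5 at P0. At P0, the stage by which it was selected, each of the 3 biallelic values lay above each of the 3 wild type values, with means of 5.87 ± 0.18 RPM in biallelic and 3.37 ± 0.03 RPM in wild type tongues (SD, n = 3 each) and a log2 difference of 0.80 (SE 0.12). At that stage 5.45% of 15549 genes had all biallelic values above all wild type values, and 0% were called by limma's adjusted p. At P20, which the choice of Trpm5 did not use, the means were 0.431 ± 0.219 RPM in biallelic and 0.186 ± 0.062 RPM in wild type tongues, from 71 and 27 reads in all, and again the biallelic and wild type libraries did not overlap, with biallelic higher. The log2 difference was 1.15 (SE 0.46, limma unadjusted p = 0.0383, adjusted p = 1), and 3.23% of 15056 genes had all biallelic values above all wild type values. Summed over 3 libraries these reads give 0.426 RPM (exact 95% Poisson interval 0.333 to 0.537) in biallelic and 0.181 RPM (0.119 to 0.263) in wild type tongues, intervals that do not include the spread between libraries.

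At E13.5 the genotypes overlapped in Trpm5, with means of 12.6 ± 5.00 RPM in biallelic and 8.87 ± 3.93 RPM in wild type tongues and a log2 difference of 0.56 (SE 0.37, limma adjusted p = 0.989). There 2.89% of 14066 genes had all biallelic values above all wild type values, and Trpm5 was not among them. The E13.5 difference was 0.12 without wild type replicate 1, which had the lowest Trpm5 level, and 0.26 without biallelic replicate 2, which had the highest. In that wild type library 12 genes of stratified epithelium summed to 816.6 RPM, against 451.2 to 708.1 RPM in the other 5, and 6 mesenchymal genes summed to 390.6 RPM, against 357.5 to 824.2 RPM. Their part in the Trpm5 result was not tested. Averaged over E13.5 and P20, the libraries that the choice did not use, Trpm5 differed by 0.85 (SE 0.33, limma unadjusted p = 0.0239, adjusted p = 0.999), where 0.019% of 15768 genes were called, namely Plagl1, Phactr2 and Slc7a10, 3 in number. The genotype difference at P20 minus that at E13.5 was 0.60 (SE 0.66, limma adjusted p = 1), so the 2 stages were not shown to differ, and it was -0.23 when 1 RPM was added before the logarithm.

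**Figure D5:**
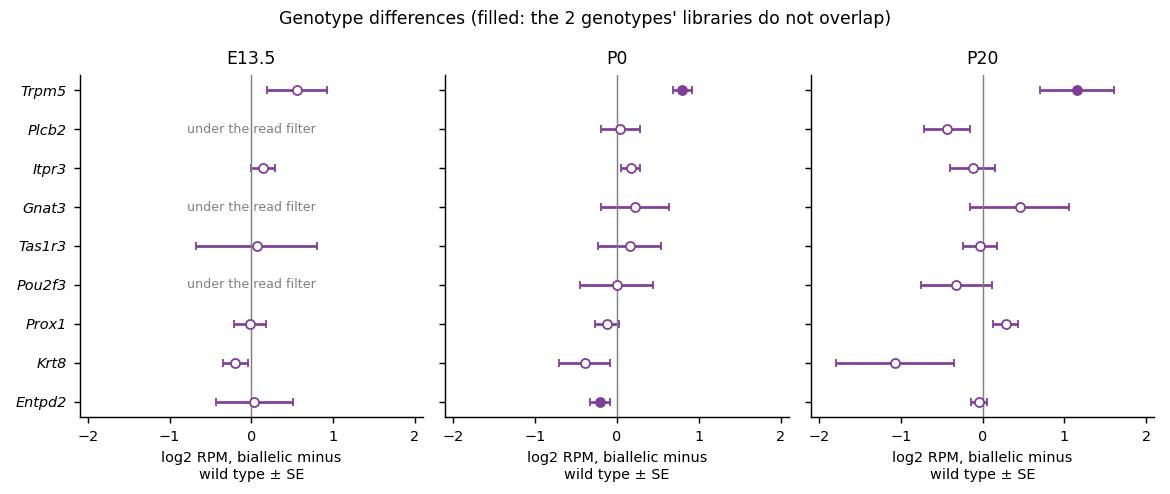
Genotype differences of the 9 genes, biallelic minus wild type on the log2 RPM scale with standard errors, at E13.5, P0 and P20. Filled points mark genes whose biallelic and wild type libraries do not overlap, which are Trpm5 at P0 (0.80) and P20 (1.15) and Entpd2 at P0 (-0.21). All biallelic values lay above all wild type values in 5.45% of genes at P0 and 3.23% at P20, and the share below was not computed. Plcb2, Gnat3 and Pou2f3 were under the read filter at E13.5.

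Entpd2 had 6.08, 6.57 and 5.94 RPM in the biallelic tongues at P0, against 7.89, 6.98 and 6.63 RPM in wild type, without overlap, and the difference of -0.21 did not pass (SE 0.124, limma adjusted p = 1). The share of all genes with every biallelic value below every wild type value was not computed, so this lack of overlap has no background beside it. At P20 Plcb2 differed by -0.44 (SE 0.28), Gnat3 by 0.45 (SE 0.60), Tas1r3 by -0.04 (SE 0.21) and Pou2f3 by -0.32 (SE 0.43), all with overlapping genotypes and limma adjusted p = 1. Krt8 stood at 0.247 ± 0.175 RPM in biallelic and 0.404 ± 0.125 RPM in wild type tongues at P20, a difference of -1.07 (SE 0.72, limma adjusted p = 1) that was -0.21 without P20 biallelic replicate 3. That library held 3 Krt8 reads. It also had the lowest Itpr3 (42.6 RPM) and Pou2f3 (1.34 RPM) and the highest Trpm5 (0.680 RPM) of its stage. Its 12 epithelial genes summed to 5630 RPM against 7088 to 10260 RPM in the other 5 libraries, and its 5 blood endothelial genes to 303.6 RPM against 159.9 to 196.3 RPM. A list of 17 measured genes of distal chromosome 7, which includes H19 and Igf2, summed to 2087 RPM in it, against 650.2 to 921.2 RPM in the others. Of the genes near Trpm5, Cd81, Tssc4, Kcnq1 and Cdkn1c had P20 means of only 51.7, 2.90, 6.31 and 14.3 RPM. The sum thus does not describe the genes next to Trpm5. Without P20 biallelic replicate 3 the Trpm5 difference at P20 was 0.77 (SE 0.46, limma adjusted p = 0.999). It was 0.87 (SE 0.48) without P20 wild type replicate 2, the library with salivary transcripts and the lowest Trpm5. The lowest value of this difference under any setting was 0.26. The part of tissue makeup was not tested. Across all genes limma called 0% at E13.5 and 0% at P20, with 464 and 362 genes at an unadjusted p under 0.05, and limma-voom called 0 in both. At P0 487 genes had an unadjusted p under 0.05 and limma-voom called 0.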

How the data were processed

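RNA-seq of ribosomal-RNA-depleted total RNA was carried out with strand-specific dUTP libraries, per the labels' protocols. Reads were trimmed with Trim Galore 0.4.2 and aligned to GRCm38 with TopHat2 2.1.0, per the submitters' processing notes; the sources do not name the counter or its strand setting. The authors deposited log2 RPM values per gene and library, relative to the reads of the library, with 0 reads set at 0.9 reads. Whole reads were recovered from the steps of the values, within 0.05 of a read, to state counts for low genes. The table of sorted costal chondrocytes was not used here, and the tongue tables list chromosomes 1 to 19.

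Members and gene lists were chosen with earlier results of these data known. limma 3.58.1 (R 4.3.3) with a mean-variance trend was fitted to the deposited log2 values of all genes with at least 10 recovered reads in at least 3 of the libraries fitted, and p-values were adjusted by Benjamini-Hochberg over all of them (threshold 0.05). Genotype was tested within each stage; stage differences came from all 18 tongue libraries, averaged over genotype. All 9 members are named; from each list, up to 4 called genes per direction with the largest change; and the 5 genes most correlated with Trpm5 among those with 10 or more reads in 9 libraries. Poisson intervals were computed with scipy 1.17.1 in Python 3.11.15. The fits were tested on simulated reads with changes placed only in genes above a set expected count, which leaves out the lowest genes. Alternatives were another filter, no filter, pseudocounts of 0.1 and 1 RPM, median centring, limma-voom with either library size, no trend, a replicate block and leaving out each library. Leaving out together the 5 libraries that stood apart, and centring on genotype as well as stage, were added after seeing the data. None of the 45 pairs of libraries of the same stage agreed within sampling noise.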

Additional observations from a re-analysis of the deposited data

How the results depend on the processing

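Of the 27 stage differences of the 9 genes, none changed its call when any one library was left out, and 1 changed sign under some setting: Plcb2 at P20 minus P0, which had not passed, was -0.006 with median centring. Gnat3 at P0 minus E13.5 lost its call with 1 RPM added (0.14). That setting shrinks differences of low genes by construction: Plcb2 was 0.478 at P0 minus E13.5, and at P20 minus P0 Krt8 was -0.808 and Tas1r3 0.351, all still called. Of 41 genotype differences of the 9 genes, that of Trpm5 at P0 left aside, 21 changed sign under some setting and 0 were called under any. The genotype count at P0 was 0, against 2 with the 1 RPM filter, 1 without a filter, 1 with median centring and 1 with voom on the sum of listed genes; leaving out 1 library gave 0 to 4, the 4 without P0 wild type replicate 3. The count averaged over E13.5 and P20 was 3, against 0 without a filter, 1 with median centring and 0 without the trend, and 0 to 2 with 1 library left out. The count for the genotype difference at P20 minus that at E13.5 was 0, against 1 without a filter. Without a filter, stage counts were 22236 against 13251 (P0 minus E13.5), 17676 against 9600 (P20 minus P0), 20373 against 11901 and 19861 against 11725 (P0 minus E13.5 in wild type and in biallelic tongues) and 15070 against 6916 (P20 minus P0 in wild type), with 27825 genes tested. The cause of the other shifts was not tested. With a replicate block the averaged genotype count was 0 against 3 and the P0 minus E13.5 count 13262; same-numbered libraries correlated at -0.525 to 0.252 over 9 pairs. The 3 pairs that correlated best with their own number were those of E13.5 (0.122, 0.075 and 0.093), where Trpm5 was higher in the biallelic library of each same-numbered pair and differed by 0.56 with the block (limma adjusted p = 0.997). Since not every correlation passed 0.1, the numbers were not taken to pair the libraries. Depth limits Plcb2, Gnat3 and Pou2f3 at E13.5 (0 to 19 reads per library), and Trpm5 (7 to 36 reads) and Krt8 (3 to 31 reads) at P20. It also limits Gnat3 at P0 (7 to 20 reads) and P20 (7 to 25 reads) and Tas1r3 at E13.5 (7 to 23 reads).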
